A study of Mus musculus with 8 samples.

Results

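Mast cell genes were followed in mouse dorsal skin after depilation, with and without topical Alpinetin (AP), a plant flavonoid. The 8 genes were Cma1, Mcpt4, Tpsb2, Tpsab1, Cpa3, Ms4a2, Fcer1a and Hdc, taken by symbol, and all 8 were found among the 18770 genes of the table. Mast cells are resident immune cells of the dermis that store proteases and histamine in granules, bound to heparin on the proteoglycan serglycin. Antigen that cross-links IgE on their high-affinity receptor makes them release the granules and produce lipid mediators. They gather around vessels, nerves and hair follicles, and their number and state in skin are known to vary over the hair cycle.

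RNA was sequenced from the back skin of wildtype C57BL/6 (by the methods C57BL/6J) mice aged 7 to 8 weeks, at day 4 after depilation and with the interfollicular epidermis taken off. The AP group (4 libraries) was given 20 µl of Alpinetin at 3 mg/ml in 65% ethanol on the depilated skin, and the vehicle control group (VC, 4 libraries) was given 65% ethanol alone. Both groups thus shared depilation and ethanol, and no library of undepilated skin was analysed here. The libraries, named VC.1 up to VC.4 and AP.1 up to AP.4 and always listed in that order below, come from separate mice by the study's figure legend, but the columns could not be matched to single samples. Values are normalized counts, that is reads on a gene divided by 1 size factor per library.

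Mitochondrially encoded genes filled 48.4% ± 5.81 (SD, n = 4) of the reads on listed genes in VC and 8.66% ± 2.63 in AP, which left between 3080758 and 3762217 other reads per VC library and between 7561598 and 10594787 per AP library. A read was worth more in VC: 3 reads, taken here as the floor of detection, came to between 4.10 and 5.63 normalized counts in VC and between 1.49 and 2.18 in AP. Mast cell transcripts were a small part of every library. The 8 genes together had 607, 447, 467 and 670 reads in VC against 735, 1153, 705 and 445 reads in AP.

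The genes of the granule proteases carried most of this signal and had lower means in AP than in VC, while Hdc, which makes histamine, ran the other way. Mcpt4, which encodes the main chymase of connective tissue mast cells, had 458, 254, 307 and 514 normalized counts in VC against 218, 212, 142 and 137 in AP. Every AP library lay below every VC library, and VC.1 and VC.4 stood highest. The mean fell from 383 ± 123 to 177 ± 43.8 (SD, n = 4), a log2 fold change of -1.08 (SE 0.26, 95% interval -1.65 to -0.52, limma adjusted p = 0.0280) on the log2(normalized count + 1) scale used throughout. Cma1, a chymase gene of the same cluster, had 275, 166, 141 and 411 normalized counts in VC against 130, 161, 87.7 and 82.3 in AP. The groups overlapped, since AP.2 lay above VC.3. Its log2 fold change of -1.02 (SE 0.34, 95% interval -1.78 to -0.27) did not pass the test (limma adjusted p = 0.0747).

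Tpsb2 encodes the tryptase that these cells store as a tetramer on heparin. It had 218, 121, 83.3 and 212 normalized counts in VC against 82.7, 79.8, 33.4 and 42.9 in AP. The groups did not overlap, but only just, with AP.1 next to VC.3. The mean fell from 159 ± 67.0 to 59.7 ± 25.2 (SD, n = 4), a log2 fold change of -1.39 (SE 0.39, 95% interval -2.25 to -0.53, limma adjusted p = 0.0453). Tpsab1 encodes a sister tryptase, which C57BL/6 mice are known not to make as protein because of a splice-site change. It had 8, 3, 2 and 0 reads in VC against 3, 5, 3 and 0 reads in AP. Both groups thus reached 0, only VC.1 stood out, and a difference was not detectable at this depth (two-sided exact permutation test, p = 0.343).

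Cpa3 encodes the carboxypeptidase that trims peptides after the chymases have cut them. It had 111, 62.1, 86.0 and 95.6 normalized counts in VC against 52.2, 78.2, 44.3 and 27.2 in AP. AP.2 lay above VC.2, and the other AP libraries lay below all of VC. The log2 fold change of -0.87 (SE 0.35, 95% interval -1.62 to -0.11) did not pass the test (limma adjusted p = 0.121). In bulk tissue, fewer mast cells and less protease RNA per mast cell cannot be told apart.

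The receptor subunits were close to the floor of detection. Ms4a2, the beta chain that amplifies signalling from the IgE receptor, had 4, 5, 0 and 0 reads in VC against 4, 8, 18 and 3 reads in AP. In normalized counts VC spanned 0 to 7.39 and AP 2.15 to 8.97, so the ranges lay over each other (log2 fold change 0.81, SE 0.94, limma adjusted p = 0.593). The log2 fold change was 0.30 without VC.3 or without VC.4 and 1.32 without VC.2. Fcer1a, the alpha chain that binds IgE itself, had 0, 2, 3 and 2 reads in VC against 0, 11, 1 and 1 reads in AP. AP.2 held most of the reads, and the groups were not detectably different (two-sided exact permutation test on log2 values, p = 0.486). The interval for Ms4a2 ran from -1.25 to 2.86 on the log2 scale, so neither a fall as large as that of Mcpt4 nor a rise of that size lay outside it.

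Hdc encodes histidine decarboxylase, the enzyme that makes histamine, and basophils, neutrophils and other cells use it too. It had 20.01, 42.9, 13.7 and 20.6 normalized counts in VC against 45.0, 78.2, 33.4 and 25.7 in AP. The groups overlapped, with VC.2 above AP.3 and AP.4, and AP.2 was highest. The log2 fold change of 0.88 (SE 0.46, 95% interval -0.13 to 1.89) did not pass the test (limma adjusted p = 0.220), and was 0.58 without AP.2. As a share of the reads on the 8 genes, a value that no scaling of libraries alters, Hdc took 1.81%, 6.49%, 2.14% and 1.64% in VC against 8.44%, 12.6%, 9.50% and 8.09% in AP. Every AP library thus had a larger Hdc share than every VC library. This share was singled out after its values were seen and was not tested.

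As shares of the reads on the 8 genes, which were not tested, the proteases compared as follows. Mcpt4 took 42.3% ± 4.15 in VC and 39.6% ± 3.89 in AP (SD, n = 4), and Cma1 took 26.2% ± 4.56 and 25.3% ± 0.728. Cpa3 took 10.1% ± 2.46 in VC and 10.9% ± 2.05 in AP, Tpsb2 17.01% ± 2.89 and 12.8% ± 2.50, and Tpsab1 0.604% ± 0.551 and 0.317% ± 0.211. Beyond shares, 3 pairs of genes of 1 role were compared within libraries. The log2 ratio of Mcpt4 to Cma1 was 0.70 ± 0.33 in VC and 0.64 ± 0.16 in AP (two-sided exact permutation test, p = 0.857, adjusted over the 3 pairs p = 0.857). The log2 ratio of Tpsb2 to Tpsab1 was 5.14 ± 1.76 in VC and 4.60 ± 0.69 in AP (exact permutation p = 0.743, adjusted p = 0.857). The log2 ratio of Ms4a2 to Fcer1a was -0.12 ± 2.65 in VC and 1.30 ± 1.36 in AP (exact permutation p = 0.400, adjusted p = 0.857). With 4 libraries in each group no exact p can be smaller than 0.0286. The sign of the first pair's difference turned without VC.3 (0.081) or AP.2 (0.021), and that of the second without VC.4 (0.33). With Tpsab1 at 0 reads in VC.4 and AP.4, the second ratio leans on the pseudocount, and its difference of -0.53 became -0.83 with a pseudocount of 5. The difference of the last pair, 1.41, became 0.67 without VC.3, 0.70 without VC.4, 2.47 without VC.1, 0.93 without AP.3 and 0.46 with a pseudocount of 5.

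Per kilobase of annotated exons, Mcpt4 was the most abundant of the 8, at 346 ± 111 normalized counts per kb in VC and 160 ± 39.5 in AP (SD, n = 4). Cma1 followed at 227 ± 113 and 106 ± 34.0, then Tpsb2 at 99.5 ± 42.0 and 37.4 ± 15.8, and Cpa3 at 58.5 ± 13.5 and 33.3 ± 14.0. Mcpt4 lay above Cma1 in 8 of 8 libraries, and Cma1 above Tpsb2 in 8 of 8. Tpsb2 lay above Cpa3 in 5 of 8, so these neighbours in the order did not differ beyond their spread. Hdc came next, at 3.80 ± 1.999 normalized counts per kb in VC and 7.13 ± 3.62 in AP, and Cpa3 exceeded it in 8 of 8 libraries. Hdc exceeded Fcer1a in 4 of 4 AP libraries but in only 2 of 4 VC libraries, so its place above the rest was not clear in VC. Fcer1a, Tpsab1 and Ms4a2 were not separated from each other, at group means per kb between 0.760 and 2.71.

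Of the 8 genes, 6 passed the filter of at least 3 normalized counts in at least 4 libraries (Tpsab1 and Fcer1a did not). By limma's adjusted p under 0.05, 2 of these 6 were lower in AP, where 4.0% of all 15964 genes tested were, and 0 were higher, where 6.33% of all genes were. The study's thresholds of an unadjusted p under 0.01 with a fold change over 1.5, applied here to limma's values, took the same 2 as lower and 0 as higher, beside 5.32% of all genes as lower and 8.26% as higher. With DESeq2, the study's tool, and with edgeR, these thresholds took 3 of the 6 as lower and 0 as higher, beside 7.35% of all genes as lower and 9.83% as higher with DESeq2 and 5.81% and 7.99% with edgeR. Groups that did not overlap were found for 2 of the 6 as lower, against 8.91% of all genes, and for 0 as higher, against 10.3%. At an unadjusted p under 0.05, limma had 4 of the 6 as lower and 0 as higher, beside 2120 of all 15964 genes as lower and 2720 as higher, and DESeq2 and edgeR on the recovered reads called 0 as higher at an adjusted p under 0.05. The median log2 fold change of the 6 was -0.95, with 4 below 0 and 2 above, beside 0.058 for all genes tested. Leaving out single libraries ended each call in part of the 8 fits, and over all 8 limma called between 94 and 817 of all genes lower, beside 639 with no library left out. The call of Mcpt4 was lost without VC.1 (limma adjusted p = 0.0659), VC.4 (0.0564), AP.3 (0.0915) or AP.4 (0.0814), and without the intensity trend (0.0705). That of Tpsb2 was lost without VC.1 (limma adjusted p = 0.103), VC.2 (0.0585), VC.4 (0.0937), AP.2 (0.0674), AP.3 (0.132) or AP.4 (0.116), without the filter (0.0513) and without the trend (0.0892). Cma1 passed with DESeq2 on the recovered reads (adjusted p = 0.0237) and with limma without VC.3 (adjusted p = 0.0489), in a range from 0.0237 to 0.673 over its alternatives.

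How the libraries were put on 1 scale decided the size of these differences. As counts per 1000000 of all reads, mitochondrial ones included, the 8 genes together had 83.6, 65.4, 72.1 and 104 reads in VC against 86.4, 106, 63.0 and 50.2 in AP. On that scale the groups lay over each other, at 81.2 ± 16.8 and 76.5 ± 24.9 (SD, n = 4). Per 1000000 reads without mitochondrial genes, VC had 161 ± 47.5 and AP 83.8 ± 27.3, again with AP.2 (115) close to VC.2 (119). Scaling by all reads moved the all-gene median of the log2 fold changes from 0.058 to 0.90 and the members' median from -0.95 to -0.084. Relative to the median of all genes, the members' median was -1.004 with the deposited size factors and -0.983 with all reads. Hdc lay 0.82 above that median on both scales, Mcpt4 lay -1.14 and -1.12 from it, and the limma adjusted p of Mcpt4, Tpsb2 and Hdc became 0.455, 0.215 and 0.0108 with all reads. No member tested changed sign under any scaling, but with all reads Cpa3 was at -0.0083. Its mean per 1000000 of all reads was 8.04 in VC and 8.52 in AP.

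**Figure D1:**
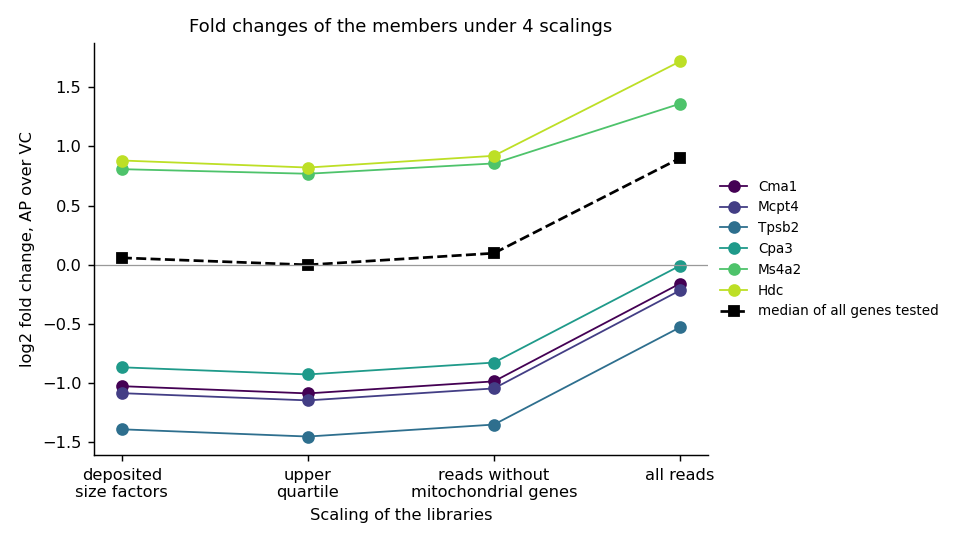
log2 fold changes of AP over VC (y axis) for the 6 mast cell genes tested, under 4 ways of scaling the libraries (x axis), with the median of all 15964 genes tested as black squares. Scaling by all reads lifts every gene and the median together, to 0.90 for the median.

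Lists of other genes at work in mast cells held 57 genes, of which 50 were in the table and 44 were tested. limma called 5 of the 44 higher and 1 lower in AP at an adjusted p under 0.05, beside 6.33% and 4.0% of all genes. Their median log2 fold change was 0.17, with 27 above 0 and 17 below. Scaled by all reads, 43 of the 44 lay above 0 and the median was 1.03, or 0.13 relative to all genes, so directions below are given for the deposited size factors. The lists on other granule proteases, granule matrix and amines, IgE receptor signalling, and histamine receptors and breakdown held no call at an adjusted p under 0.05 in limma.

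Among the other granule genes, Tpsg1, a tryptase anchored in the membrane, was the only further protease tested. Its means were 12.0 ± 7.13 normalized counts in VC and 7.58 ± 3.95 in AP (limma adjusted p = 0.583). Srgn, which encodes serglycin, had means of 131 ± 63.1 in VC and 139 ± 36.6 in AP, and Ndst2, an enzyme of heparin sulfation, 119 ± 57.1 and 152 ± 21.8. Slc18a2, the transporter that loads histamine and serotonin into granules, had 24.1 ± 12.9 in VC and 13.2 ± 5.43 in AP. None of these 3 genes passed the test in limma, with adjusted p between 0.325 and 0.754. At an unadjusted p under 0.05, limma had 0 of the 3 in either direction, and DESeq2 and edgeR called 0 at an adjusted p under 0.05.

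Surface receptors had 1 gene higher and 0 lower of 6 tested in limma, beside 6.33% and 4.0% of all genes. At an unadjusted p under 0.05 limma had 1 lower, beside 2120 of all 15964 genes. DESeq2 called 1 lower at an adjusted p under 0.05, beside 1362 of all genes, and edgeR 0. Csf2rb, the signalling chain shared by several cytokine receptors, had 89.1, 90.1, 127 and 165 normalized counts in VC against 247, 330, 196 and 237 in AP. The groups did not overlap, and the log2 fold change was 1.12 (SE 0.25, limma adjusted p = 0.0227). The call was lost without VC.1 (limma adjusted p = 0.0512), AP.2 (0.0682) or AP.4 (0.0601), and without the intensity trend (0.0546). Kit, the stem cell factor receptor on which mast cells and melanocytes depend, had 81.9, 94.6, 68.3 and 93.8 normalized counts in VC against 115, 85.7, 107 and 53.6 in AP. AP held both the highest and the lowest library, and the log2 fold change was 0.047 (SE 0.28, 95% interval -0.58 to 0.67, limma adjusted p = 0.929). Fcer1g, the gamma chain that the IgE receptor shares with receptors of macrophages, had means of 496 ± 203 in VC and 278 ± 80.0 in AP (log2 fold change -0.80, limma adjusted p = 0.0792, 0.0495 without AP.1, and DESeq2 adjusted p = 0.0440).

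Mrgprb2, a receptor that lets connective tissue mast cells respond to basic peptides and drugs without IgE, was named after its values were seen. It had 0 reads in VC against 3, 2, 22 and 16 reads in AP. The AP mean of 6.41 normalized counts lay close to the 4.10 to 5.63 that the floor of 3 reads came to in the VC libraries, and the gene did not pass the filter. Without the filter limma called 6 of 50 other mast cell genes higher, Mrgprb2 among them, beside 987 of all genes. As Mrgprb2 was singled out by these same values, the call is no further test of it. In AP.1 and AP.2 the values of Mrgprb2, at most 2.18 normalized counts, lay below what 3 reads came to in VC.

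The transcription factors had 0 genes higher and 1 lower of 6 tested in limma, beside 6.33% and 4.0% of all genes. At an unadjusted p under 0.05 limma had 1 higher, beside 2720 of all 15964 genes, and DESeq2 and edgeR called 0 higher. Mitf, which drives both mast cell and melanocyte genes, had 169, 174, 162 and 197 normalized counts in VC against 115, 118, 113 and 83.0 in AP. The groups did not overlap, with AP.4 lowest (log2 fold change -0.72, SE 0.20, limma adjusted p = 0.0427). Leaving out any of the 8 libraries took the adjusted p over the threshold, to between 0.0531 and 0.118. The call was also lost without the trend (limma adjusted p = 0.0599) and with reads without mitochondrial genes as the scale (0.0611), and scaling by all reads, which lifts all genes, turned the sign (0.15). Relative to the median of all genes Mitf lay at -0.78 with the deposited size factors and at -0.75 with all reads. Of the melanocyte genes, 6 of 6 tested were below 0 and 3 passed the test as lower in limma, beside 4.0% of all genes. The number was 2 without the filter, beside 565 of all genes. It was 1 without the trend, with reads without mitochondrial genes as the scale and with all reads, beside 216, 540 and 70. The median of the melanocyte genes relative to all genes was -1.15, and -1.12 after scaling by all reads, where 3 of the 6 were below 0. Their summed normalized counts were 4358, 3340, 3923 and 1414 in VC against 1338, 1566, 2012 and 1200 in AP, with Dct most abundant and no marker at 0 in a whole group. VC.4 was lowest of VC for them and highest for Mitf. Their part in the Mitf difference was not tested. Stat5b, Stat5a and Runx1, relays and factors downstream of growth signals, had log2 fold changes of 0.28, 0.20 and -0.41 and did not pass (limma adjusted p = 0.302, 0.549 and 0.206). Stat5a spanned 0.067 without VC.1 to 0.34 without VC.3.

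IgE receptor signalling had 0 of 13 genes past limma's adjusted p in either direction, with 0 higher and 2 lower at an unadjusted p under 0.05 (beside 2120 of all 15964 genes lower). DESeq2 called 0 higher and 1 lower, beside 1677 and 1362 of all genes, and edgeR 0 in both. Its most abundant genes were Plcg1, a phospholipase, and the kinases Fyn and Syk. Plcg1 had means of 493 ± 35.6 normalized counts in VC and 550 ± 43.3 in AP, and Syk 204 ± 50.3 and 191 ± 59.0. Fyn had 520 ± 70.9 in VC and 345 ± 74.9 in AP, with a log2 fold change of -0.61 (SE 0.19, limma adjusted p = 0.0576, DESeq2 adjusted p = 0.0326). Its groups did not overlap, it met the study's thresholds as lower in limma, and its limma adjusted p was 0.0343 without AP.1 and 0.0451 with the upper quartile as the scale. All 3 are also used by other cells of skin.

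Genes of lipid mediators gave 3 of the 5 calls in the higher direction, with a median log2 fold change of 1.05. Of 7 tested, 3 were higher and 0 lower in limma, beside 6.33% and 4.0% of all genes. The number higher was 4 with DESeq2, 3 with edgeR and 2 without the trend, beside 1677, 1003 and 376 of all genes. At an unadjusted p under 0.05 limma had 0 lower, and DESeq2 and edgeR called 0 lower. Ptgs2, the inducible cyclooxygenase, had 5.46, 4.43, 5.46 and 1.88 normalized counts in VC, against 52.2, 60.9, 66.3 and 82.3 in AP. The VC values were 3, 3, 4 and 1 reads, with VC.4 below the floor of 3 reads. Each AP library exceeded each VC library (log2 fold change 3.70, SE 0.44, limma adjusted p = 0.00237). Ptgs1, the constitutive cyclooxygenase, had 63.7, 205, 225 and 139 in VC against 294, 404, 578 and 689 in AP (log2 fold change 1.71, SE 0.38, limma adjusted p = 0.0230). Again the groups did not overlap, and the call was lost without AP.2 (limma adjusted p = 0.0511), AP.3 (0.0766) or AP.4 (0.0699), and without the trend (0.0668). Alox5, the lipoxygenase that starts leukotriene synthesis, had 20.01, 17.7, 39.6 and 35.6 in VC against 104, 57.7, 86.7 and 118 in AP (log2 fold change 1.70, SE 0.37, limma adjusted p = 0.0205). Its groups did not overlap, and the call was lost without AP.3 (limma adjusted p = 0.0702) or AP.4 (0.0699). Alox5ap, which hands substrate to that enzyme, and Pla2g4a, which frees arachidonic acid, had log2 fold changes of -0.23 and 1.01 (limma adjusted p = 0.722 and 0.0686), and Pla2g4a passed with DESeq2 (adjusted p = 0.0236). Suprabasal keratinocyte genes were higher in AP too, with summed normalized counts between 2849 and 8503 in VC and between 30430 and 131400 in AP. Endothelium genes had sums between 502 and 1065 in VC and between 1580 and 4567 in AP. Of these, 4 of 4 were above 0 and limma called 2 higher at an adjusted p under 0.05, beside 6.33% of all genes. The part of either cell type in the lipid mediator differences was not tested.

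Of the ligands that act on mast cells, 1 of 5 tested was higher and 0 were lower in limma, beside 6.33% and 4.0% of all genes. There were 0 lower at an unadjusted p under 0.05 in limma, and 0 lower by DESeq2 and edgeR. Il33, an alarmin released from damaged barrier and stromal cells, had 41.8, 109, 142 and 69.4 normalized counts in VC against 116, 222, 460 and 415 in AP. AP.1 lay below VC.3, so the groups overlapped, and the log2 fold change was 1.68 (SE 0.46, limma adjusted p = 0.0425). The call was lost without VC.1 (limma adjusted p = 0.0959), VC.2 (0.0519), VC.4 (0.0796), AP.2 (0.0823), AP.3 (0.130) or AP.4 (0.117), and without the trend (0.0961). Kitl, the stem cell factor that keeps mast cells alive, had 395, 198, 277 and 216 normalized counts in VC against 257, 524, 272 and 260 in AP. Only AP.2 stood apart in its group (log2 fold change 0.26, SE 0.28, limma adjusted p = 0.566), and without it the log2 fold change was 0.0073. Tslp, a cytokine of epithelium, had 18.96 ± 6.32 in VC and 14.6 ± 5.89 in AP (limma adjusted p = 0.621).

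Histamine receptors and breakdown had 0 of 3 genes past limma's adjusted p, and 0 with DESeq2 or edgeR. At an unadjusted p under 0.05 limma had 1 higher and 0 lower, beside 2720 and 2120 of all 15964 genes. Hnmt, which methylates histamine, had means of 19.2 ± 16.8 normalized counts in VC and 25.9 ± 5.75 in AP. Hrh1, the receptor behind itch and vessel leakage, had 0, 0, 2.73 and 26.3 normalized counts in VC against 17.4, 25.3, 16.4 and 7.15 in AP. VC.4 lay above every AP library and the other VC libraries below. The log2 fold change was 2.35 (limma adjusted p = 0.139), and 1.23 with DESeq2 and 1.25 with edgeR. VC.4 was the only VC library above 2.73. Without it no VC library reached the filter of 3 normalized counts, so a fit without VC.4 is no further test. Hrh2 had 6.78 ± 4.71 in VC and 2.96 ± 2.44 in AP (limma adjusted p = 0.454).

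**Figure D2:**
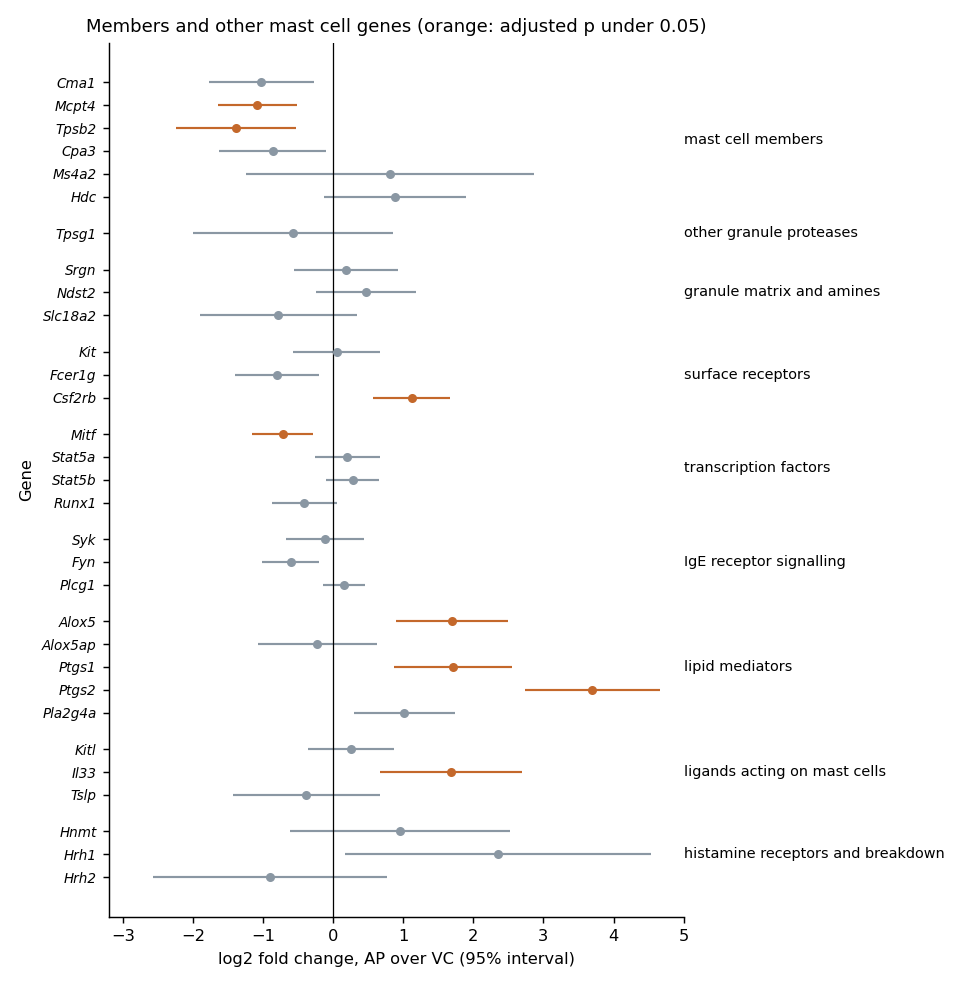
log2 fold changes of AP over VC with their 95% intervals (x axis) for the tested mast cell genes and the named genes of the other lists (y axis, grouped by list), orange where limma's adjusted p was under 0.05. Mcpt4 (-1.08), Tpsb2 (-1.39) and Mitf (-0.72) are the orange points below 0, and Ptgs2 (3.70) is the farthest above.

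Across the 8 libraries, Mcpt4, Cma1 and Tpsb2 followed each other closely. As a description over 8 libraries that share group and scaling, Pearson's r on the log2 scale was 0.950 for Mcpt4 with Cma1 and 0.953 for Mcpt4 with Tpsb2, and 0.922 and 0.878 after each group's mean was taken off. Cpa3 followed Mcpt4 less closely, at 0.888 and 0.765, and Tpsab1 hardly did, at 0.321 and 0.0509. Hdc had r between -0.450 (Mcpt4) and -0.228 (Cpa3) with the proteases other than Tpsab1, and between 0.117 (Mcpt4) and 0.435 (Tpsb2) within groups. Outside the mast cell lists, the genes most like the mean of the 8 on the log2 scale were Idh1 (r = 0.947 over n = 8 libraries, 0.937 within groups), As3mt (0.941 and 0.920), Poldip2 (0.935 and 0.910), Lpl (0.931 and 0.952) and Iqcg (0.917 and 0.878), out of 11225 genes compared. Lpl, the lipase of fat tissue, had 5885, 3814, 3053 and 4144 normalized counts in VC against 3586, 5629, 3079 and 1865 in AP. None of these 5 genes passed the test between groups in limma (adjusted p from 0.259 to 0.512). They were picked as the highest of 11225 values of r over 8 libraries, so a high r came with the choice. The mean of the 8 weighs each gene alike, also Tpsab1, Fcer1a and Ms4a2 with their few reads.

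Markers of 3 other cell types are set beside the proteases here, and of these only those of suprabasal keratinocytes passed the test. The lists of melanocytes, endothelium, Schwann cells, neutrophils and antigen-presenting cells also held calls, which are given elsewhere. Macrophage genes had 8 of 8 tested below 0 (median log2 fold change -0.82), of which limma called 0 at an adjusted p under 0.05 and 5 at an unadjusted p under 0.05 (beside 2120 of all 15964 genes lower), and DESeq2 called 2 (beside 1362 of all genes lower) and edgeR 0. Their summed normalized counts were 17380, 8898, 7772 and 23200 in VC against 10880, 7387, 5332 and 5525 in AP, with Lyz2 most abundant and no marker at 0 in a whole group. VC.1 and VC.4 were thus highest for macrophage genes as for Mcpt4, and AP.3 and AP.4 lowest. The mitochondrial share of reads was 54.3%, 44.9%, 42.1% and 52.3% in VC, so also highest in VC.1 and VC.4, and 11.1%, 7.85%, 5.32% and 10.3% in AP. Relative to all genes the median of the macrophage genes was -0.88, and -0.85 after scaling by all reads, where 3 of the 8 were below 0. Skeletal muscle genes had 4 of 4 below 0, of which limma, DESeq2 and edgeR called 0 and limma had 4 at an unadjusted p under 0.05 (the same 2120 of 15964 beside it), with sums of 35390, 51790, 26090 and 28320 in VC against 40580, 6710, 3512 and 8676 in AP and Acta1 most abundant. AP.1 lay within the VC range for them, while for Mcpt4 it lay below. Suprabasal keratinocyte genes had 4 of 4 above 0, all called higher by limma's adjusted p, beside 6.33% of all genes. Their sums were 2849, 8503, 5232 and 3512 in VC against 30430, 32600, 84140 and 131400 in AP, with Krt10 most abundant. Transcripts of these keratinocyte genes were thus present in all libraries of skin labelled as without interfollicular epidermis. By the methods the hair follicles were kept, and whether follicle or epidermis gave these transcripts was not tested. The part of these cell types, and of the mitochondrial share, in the differences of the proteases and of the other mast cell genes was not tested.

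Beside Hdc stand basophil and neutrophil genes, since those cells also use it. The basophil list was nearly absent: Mcpt8 summed to 0, 2.96, 1.37 and 7.5 normalized counts in VC against 1.45, 0.539, 0.997 and 0 in AP, and Prss34 was not analysed here. Neutrophil genes had 3 of 4 tested above 0, with 1 called higher in limma, beside 6.33% of all genes. Their summed normalized counts were 91.0, 114, 71.0 and 131 in VC against 70.4, 308, 254 and 599 in AP, with S100a8 most abundant, a gene that keratinocytes also make. S100a8 and S100a9 made up 295 and 257 of the sum in AP.4, and the receptors Csf3r and Cxcr2 lay on either side of 0 (log2 fold changes -0.77 and 1.53, limma adjusted p = 0.276 and 0.285). Their part in the values of Hdc was not tested.

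Of the protease genes, 4 lie in 2 clusters and Cpa3 lies apart. Cma1 (ENSMUSG00000022225, chr14:55941451-55944675) and Mcpt4 (ENSMUSG00000061068, chr14:56059629-56062313) sit 115 kb apart on the minus strand of mm10, and Tpsab1 (ENSMUSG00000024173, chr17:25343245-25345562) and Tpsb2 (ENSMUSG00000033825, chr17:25366305-25369098) 20.7 kb apart on opposite strands. Cpa3 (ENSMUSG00000001865) lies at chr3:20215620-20242181, Ms4a2 (ENSMUSG00000024680) at chr19:11615523-11623719, Fcer1a (ENSMUSG00000005339) at chr1:173221284-173227214 and Hdc (ENSMUSG00000027360) at chr2:126593667-126619299. Reads from stretches that genes share cannot be placed by sequence alone, and how they were counted is not known. Of the 50-base words in annotated transcripts, 5.48% of those of Mcpt4 and 5.38% of those of Cma1 were shared with other genes. Cma2 was foremost for Mcpt4 and Gm48934 for Cma1. Tpsb2 and Tpsab1 shared 0 such words with each other or with any other gene, and Cpa3 and Fcer1a shared 0 as well. Inside Cpa3, on the same strand, lies the microRNA gene Mir7007, and no other member overlapped an annotated gene.

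The 250 bases before the starts of Cpa3, Mcpt4, Cma1 and Hdc are shown, from RefSeq's promoter table (GRCm38.p6), which held 6 of the 8 genes (not Tpsb2 and Tpsab1). All lie on the minus strand and are written 5′ to 3′ of the gene. The motifs searched, on both strands, were AGATAA (the core that GATA factors bind) and the E-boxes CATGTG and CACGTG (which factors such as Mitf bind), and capitals mark their matches. Of 32851 promoters of the same length, 9.99% held AGATAA, 12.3% CATGTG and 6.02% CACGTG. Cpa3 (chr3:20242182-20242431) held AGATAA, starting 46 bases before the gene's start. Mcpt4 (chr14:56062311-56062560), Cma1 (chr14:55944676-55944925) and Hdc (chr2:126618679-126618928) held no match to the motifs searched, which leaves out other forms of the GATA site. The window of Hdc lies inside the annotated gene, because RefSeq starts it further in. Of the windows not shown, Ms4a2 held AGATAA 3 times and Fcer1a held it 1 time, with CATGTG 1 time. A match describes letters only.
Cpa3: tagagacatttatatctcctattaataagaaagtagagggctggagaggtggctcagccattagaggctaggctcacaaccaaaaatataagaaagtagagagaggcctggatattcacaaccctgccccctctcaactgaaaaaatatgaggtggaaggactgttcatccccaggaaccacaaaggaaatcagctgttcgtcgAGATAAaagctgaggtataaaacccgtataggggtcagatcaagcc
Mcpt4: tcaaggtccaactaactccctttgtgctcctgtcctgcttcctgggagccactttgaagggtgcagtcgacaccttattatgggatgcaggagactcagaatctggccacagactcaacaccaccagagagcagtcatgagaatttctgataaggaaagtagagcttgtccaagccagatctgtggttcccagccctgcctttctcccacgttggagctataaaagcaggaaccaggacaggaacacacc
Cma1: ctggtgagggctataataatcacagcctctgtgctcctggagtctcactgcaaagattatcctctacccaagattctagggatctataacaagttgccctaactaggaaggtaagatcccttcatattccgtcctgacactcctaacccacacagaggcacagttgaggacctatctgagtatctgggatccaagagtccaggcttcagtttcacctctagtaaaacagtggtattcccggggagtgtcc
Hdc: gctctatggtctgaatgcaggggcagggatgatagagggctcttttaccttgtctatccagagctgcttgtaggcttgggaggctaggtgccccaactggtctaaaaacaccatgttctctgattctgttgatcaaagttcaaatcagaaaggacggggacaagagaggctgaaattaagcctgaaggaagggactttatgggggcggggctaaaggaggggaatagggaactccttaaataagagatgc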

How the data were processed

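Per the labels and the study's methods, RNA of 4 AP and 4 VC skin samples was sequenced after mRNA enrichment, and the submitters' processing notes name STAR, HTSeq, DESeq2 and mm10, while the methods name another read counter. The deposited signal is read counts divided by 1 size factor per library. Each of its 150160 values was a whole number of steps of its library's size (tolerance 0.01 of a read), so reads were recovered. The table also holds the authors' own DESeq2 mean, fold change, standard error, statistic, p-value and adjusted p-value per gene, which were not used.

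Groups were compared with limma-trend on log2(normalized count + 1) (limma 3.58.1, R 4.3.3). Genes entered if 4 or more of the 8 libraries had 3 normalized counts or more, and p-values of these 15964 genes were adjusted together by Benjamini and Hochberg's method. Ratios within a library were compared with two-sided exact permutation tests. The alternatives were DESeq2 1.42.0 and edgeR 4.0.16 (TMM factors, quasi-likelihood test) on the recovered reads, 3 other scalings (all reads, reads without mitochondrial genes, upper quartile), no filter, a filter of 10, pseudocounts of 0.5 and 5, no intensity trend and each library left out. The steps were tested on simulated data, of which no outcome is given here. Coordinates and exon lengths came from GENCODE M21 (GRCm38, the assembly of mm10), in which 18766 identifiers were found, and promoters from RefSeq. Sequences and figures were made with Python 3.11.15, pandas 2.3.3 and matplotlib 3.10.9. Named were all members, the genes of the other mast cell lists with an adjusted p under 0.05 or among the 3 highest means of a list, and the 5 genes most like the members among those with a mean of at least 50. Mrgprb2 and single markers of other cell types were named outside this rule, Mrgprb2 after its values were seen. The members and lists were chosen with earlier results of these data known.

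Lists for which few or no values are printed above gave these counts with limma at an adjusted p under 0.05. Of all genes tested, 6.33% were higher and 4.0% lower by this rule. Antigen-presenting cells had 1 of 4 tested higher and 0 lower, T cells 0 of 4, pan-leukocyte genes 0 of 5, fibroblasts 0 of 6, adipocytes 0 of 4 and basal keratinocytes 0 of 2. Endothelium had 2 of 4 higher, and Schwann cells 2 of 3 lower. Eosinophil genes had 0 tested of 4.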

Additional observations from a re-analysis of the deposited data

Results flagged for a closer look

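Among 74 groups of 4 libraries looked at, 4 held a library far from the other 3, and chance gives this in about 1 of 20 groups. Fcer1a had 5.93 normalized counts in AP.2 and between 0 and 0.715 in the other AP libraries. Mitf had 83.0 in AP.4, below the 113 to 118 of the other AP libraries. Kitl had 524 in AP.2, above the 257 to 272 of the others. Hrh1 had 26.3 in VC.4, where the other VC libraries had between 0 and 2.73. No cause was tested for any of them.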

How the results depend on the processing

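Among 18 alternatives, Mcpt4 and Tpsb2 kept their sign in all and an adjusted p under 0.05 in 12 and 9, and Ptgs2 kept its call in all 18. Left-out libraries gave log2 fold changes from -1.26 to -0.92 for Mcpt4, -1.66 to -1.15 for Tpsb2, -1.25 to -0.74 for Cma1, -1.11 to -0.61 for Cpa3, 0.58 to 1.19 for Hdc and 0.30 to 1.32 for Ms4a2 (0.24 with a pseudocount of 5, 0.34 with DESeq2). Members lower at an adjusted p under 0.05 numbered 0 with all reads, 1 with no filter, 0 with no trend and 0 to 3 with a library left out, and members higher 1 with all reads. By the study's thresholds on limma's values 0 members were lower and 1 higher with all reads, and 1 was lower with no trend. With a library left out 1 to 4 were lower, while DESeq2, edgeR and the upper quartile gave 3 lower. The share of all genes lower by these thresholds was 5.32% in limma's main fit, 7.35% with DESeq2 and 5.81% with edgeR. It is not given here for the other settings, so their counts cannot be set against all genes. The counts that follow are again at an adjusted p under 0.05. Other mast cell genes higher numbered 24 with all reads, 2 with no trend and 1 to 6 with a library left out. Those lower numbered 3 with DESeq2, 0 with all reads, 0 with reads without mitochondrial genes, 2 with the upper quartile, 0 with no trend and 0 to 2 with a library left out. All genes higher came to 1677 with DESeq2, 8662 with all reads, 376 with no trend and 209 to 1082 with a library left out, and all genes lower to 1362, 70, 216 and 94 to 817. With all reads the members' median was -0.084 and that of all genes 0.90, and signs turned for Mitf (0.15), Tpsg1 (0.20), Slc18a2 (0.034), Fcer1g (0.068), Runx1 (0.46), Fyn (0.26), Syk (0.75), Alox5ap (0.64) and Tslp (0.43). Kit turned with the upper quartile (-0.013). With a library left out Kit spanned -0.086 to 0.27, Srgn -0.050 to 0.45, Syk -0.29 to 0.073, Alox5ap -0.63 to 0.014, Stat5a 0.067 to 0.34, Kitl 0.0073 to 0.45, Hrh1 1.80 to 3.38, Hrh2 -1.39 to -0.54, Hnmt 0.19 to 1.49, Tslp -0.60 to -0.12, Tpsg1 -0.93 to -0.15, Ndst2 0.22 to 0.69, Slc18a2 -1.02 to -0.48, the log2 ratio of Mcpt4 to Cma1 -0.19 to 0.081, that of Tpsb2 to Tpsab1 -0.97 to 0.33 and that of Ms4a2 to Fcer1a 0.67 to 2.47. The upper end for Hrh1 is the fit without VC.4, which as said above is no further test. The causes of these changes were not tested. No paired analysis was possible because the sample labels give the groups no shared replicate number. Depth limited Tpsab1, Fcer1a and Ms4a2 most, with 13, 7 and 9 reads in all of VC and 11, 13 and 33 in all of AP.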
